A study of Mus musculus with 30 samples.

Results

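Multipotent progenitors of mouse bone marrow were compared between 2 sorted subsets, MPP4 and MPP3, in the cells labelled T2 of 3-month-old mice. The members were the 3 libraries labelled 3-month WTiMOS MPP4 T2 and the 3 labelled 3-month WTiMOS MPP3 T2, 6 of the 30 libraries of the series. Of 24421 genes listed, 11207 had at least 1 TPM (a transcript level scaled for length and for the total of its library) in at least 3 of the 6 libraries, with genes of the X and Y chromosomes left out. The series also held T1 cells, mice of 24 months, and KOiMOS MPP3 of 3 months, as 10 groups of 3 libraries in 5 tables. All groups whose differences of MPP4 minus MPP3 are given carry the WTiMOS label. The KOiMOS groups enter the correlations between group means. The series is about the transcription factor Bcl11a, and its text names cells of KO-iMOS mice and the effect of excess Bcl11a on wild-type MPP3. The labels do not say what T1 and T2 stand for, which markers set the sorting gates, or from how many animals the replicates were taken. The p-values below therefore measure library-to-library spread, part of which may be technical.

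MPP3 and MPP4 both arise from blood stem cells. MPP3 is known for output of granulocytes and monocytes. MPP4, often called the lymphoid-primed progenitor, carries the receptor kinase Flt3 and is known to start transcription of lymphoid genes such as Dntt and the Rag genes before commitment to the B or T lineage. Bcl11a, a zinc finger repressor that works with the NuRD complex, is needed for B cell development and is best known for silencing fetal globin genes in red cell precursors.

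MPP4 and MPP3 of 3 months were deposited in separate tables, so cell type and table cannot be told apart in this comparison. MPP4 and MPP3 of 24 months came from separate tables too. Table therefore cannot be told apart from cell type at 24 months, or from age where the ages are compared. Group means of log2(TPM + 1) over 13225 genes correlated at 0.927 to 0.983 (Pearson r, a description) among the 4 MPP3 groups of 3 months, WTiMOS and KOiMOS, and at 0.952 to 0.989 among the other 6 groups, which include MPP3 of 24 months. Between these 2 sets r was 0.760 to 0.867, and for 3-month MPP4 T2 with 3-month MPP3 T2 it was 0.779. Within the groups compared, r between libraries was 0.988 to 0.991 in MPP4 and 0.977 to 0.979 in MPP3. Transcripts under 1000 bases held 33.8% to 34.1% of the TPM in MPP4 libraries and 11% to 12.9% in MPP3 libraries. The 10 leading genes held 9.86% to 9.96% in MPP4 and 4.79% to 5.12% in MPP3. Read depth is unknown, since TPM keeps none. Y-linked transcripts summed to 106 to 115 TPM in MPP4 and 33.8 to 58.5 TPM in MPP3, and Xist stood at 21.8 to 24.1 TPM in MPP4 and 33.4 to 40.5 TPM in MPP3, so both kinds of transcript were present in every library.

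**Figure D1:**
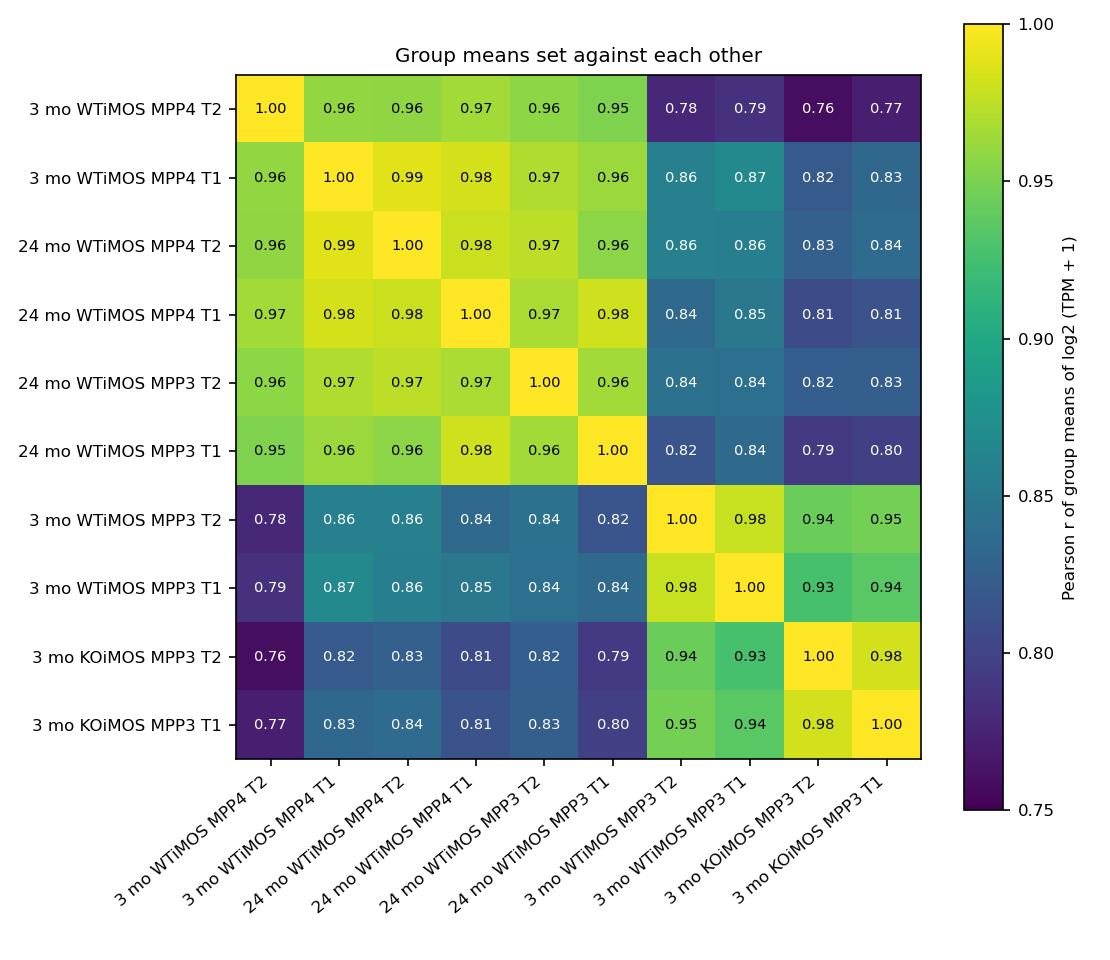
Pearson r between group means of log2(TPM + 1) for every pair of the 10 groups, by colour and printed value. The 4 MPP3 groups of 3 months form a block of their own (0.927 to 0.983), and 3-month MPP4 T2 stands with the 24-month groups and 3-month MPP4 T1 (0.952 to 0.965).

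Values below are TPM rescaled by the median ratio over the 6 libraries, differences are MPP4 minus MPP3 on the log2(rescaled TPM + 1) scale, and adjusted p is limma's with the Benjamini and Hochberg adjustment over all genes tested. At adjusted p under 0.05, 8936 genes (79.7%) were called, 4231 higher (37.8%) and 4705 lower (42%) in MPP4. The SD of the log2 difference over all genes was 1.71 and its median -0.09. With TPM as deposited the median was -1.06, a shift of 0.97, and 9287 genes (82.9%) were called, 2270 higher (20.3%) and 7017 lower (62.6%). Libraries of the groups did not overlap for 9089 genes (81.1%). In 24-month T2 cells, with no library shared, 3148 of 11136 genes (28.3%) were called, 1558 higher (14%) and 1590 lower (14.3%), and the SD was 0.56. In T1 cells of 3 months, from the same 2 tables, 8895 of 11458 (77.6%) were called, 4453 higher (38.9%) and 4442 lower (38.8%). Since most genes passed the test, each count below is read against that share, and for many of the genes described the values in T1 cells or at 24 months are given too. A list member that reached 1 TPM in 1 group alone had to differ, so counts and medians over tested members are descriptions.

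The difference varied with transcript length and base composition. Genes with a longest transcript of 500 to 1000 bases had a median log2 difference of 2.28 and 87.4% of them were called higher, while those of 2000 to 3000 bases had a median of -0.74. Genes under 40% GC had a median of 0.90, and those of 56% to 60% GC a median of -1.09. At 24 months the same length bins had medians of -0.41 and 0.09, and the GC bins 0.09 and 0.02. Neither trend at 3 months ran in 1 direction throughout. Genes under 500 bases had a 3-month T2 median of 0.91, and those of at least 6000 bases 0.44, with 48.7% called higher and 23.2% lower. Genes of at least 60% GC had a median of -0.55. The part of length and GC in any single gene's difference was not tested, but with a trend on both removed from each library 7978 of 10769 genes (74.1%) were called, 3617 higher (33.6%) and 4361 lower (40.5%). Among 8591 genes called without that step, the call and direction held for 6418, and 378 were called in the opposite direction. The rest were no longer called in either direction. A log2 difference given below as "after the GC and length step" comes from that fit.

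**Figure D2:**
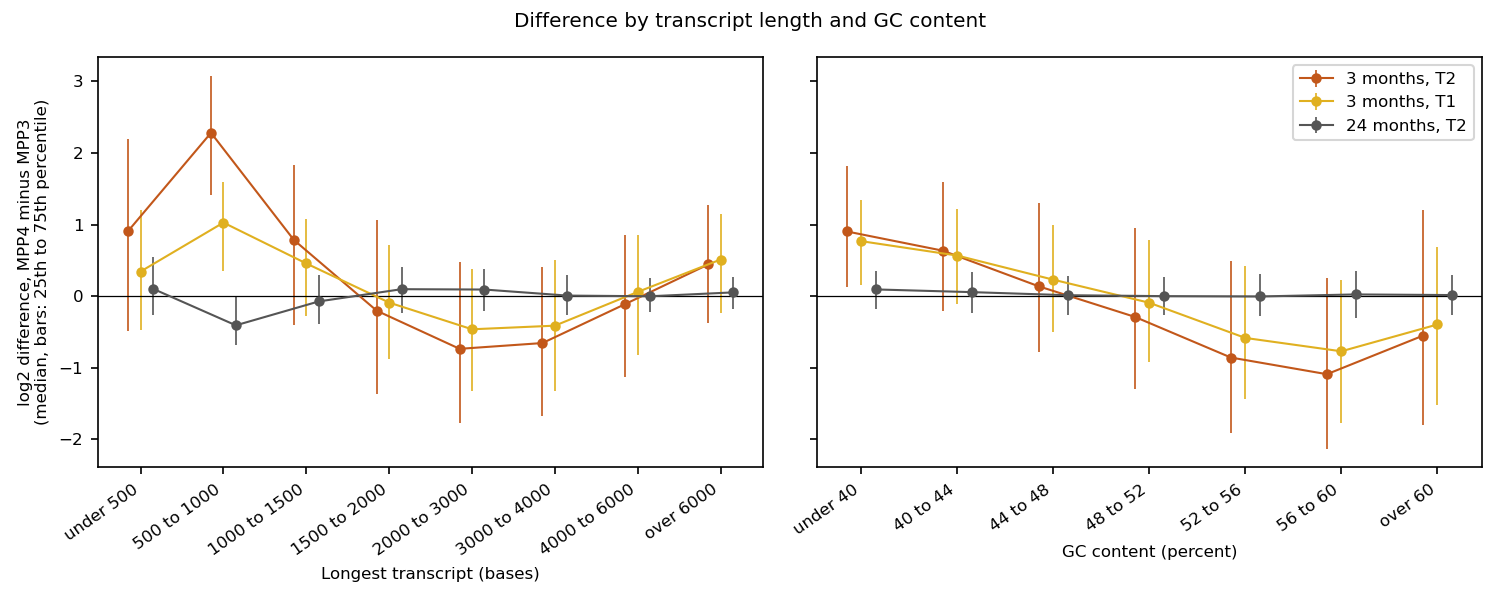
Median log2 difference of MPP4 minus MPP3 (points) with the 25th to 75th percentile of genes (bars), by longest transcript (left, bases) and GC content (right, percent). The 3-month T2 medians run between 2.28 and -0.74 over length and between 0.90 and -1.09 over GC, while the 24-month T2 medians stay between 0.10 and -0.41.

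Bcl11a itself was higher in MPP4 after rescaling and lower with TPM as deposited. It stood at 93.8, 97.8 and 96.3 TPM in the MPP4 libraries and 53.9, 55.8 and 47.4 TPM in the MPP3 libraries, with no overlap. The log2 difference was 0.87 ± 0.11 (SE; adjusted p = 1.04e-05 with limma). With TPM as deposited it was -0.26, and after the GC and length step 0.27. At 24 months Bcl11a stood at 64.4, 59.4 and 58.8 TPM in MPP4 T2 and 47.9, 43.9 and 36.2 TPM in MPP3 T2, a log2 difference of 0.51 (limma adjusted p = 0.0134). In T1 cells of 3 months the log2 difference was 0.02, and the difference between T2 and T1 cells was 0.93 (limma adjusted p = 8.83e-05). Of the 23 tested members of a list of Bcl11a and its corepressors, 10 were higher and 7 lower, with a median of 0.21 against -0.09 over all genes (6 higher and 17 lower, median -0.82, with TPM as deposited). The corepressor subunits moved in both directions. Mbd2, the methyl-DNA binding subunit of NuRD, averaged 62.9 ± 11.1 TPM in MPP4 and 4.62 ± 0.592 TPM in MPP3, and the deacetylase Hdac1 averaged 55 ± 0.28 TPM in MPP4 and 322 ± 14.1 TPM in MPP3 (SD, n = 3 each). Mta2, a scaffold of the same complex, averaged 7.65 ± 0.881 TPM in MPP4 and 188 ± 18.4 TPM in MPP3, and the histone chaperone Rbbp4 23.2 ± 0.412 TPM in MPP4 and 171 ± 9.09 TPM in MPP3. At 24 months the log2 differences of Mbd2, Mta2 and Rbbp4 were -0.33, -0.05 and 0.25, and none of the 3 was called, while Hdac1 was higher in MPP4 by 0.66 (limma adjusted p = 0.00512), the opposite of its direction at 3 months.

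Lymphoid priming genes were mostly higher in MPP4. Of 21 tested, 15 were higher, 5 lower and 1 not called, with a median log2 difference of 1.52 against -0.09 over all genes. With TPM as deposited 11 were higher and 6 lower (median 0.40), and after the GC and length step 12 were higher and 4 lower (median 1.47). In T1 cells 13 were higher and 7 lower (median 0.92), and at 24 months 13 were higher and 3 lower (median 0.97).

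Dntt, the template-independent polymerase that adds bases at antigen receptor joins, stood at 621, 559 and 554 TPM in MPP4 and 37.7, 24.2 and 28.7 TPM in MPP3. Every MPP4 library lay far above every MPP3 library. The log2 difference was 4.24 ± 0.15 (limma adjusted p = 8.96e-11), with 2.72 in T1 cells, 3.40 at 24 months and 4.42 after the GC and length step. Satb1, a chromatin organizer of early lymphoid cells, stood at 79, 69.3 and 69.5 TPM in MPP4 and 5.23, 7.52 and 6.16 TPM in MPP3. Its log2 difference was 3.34 ± 0.15 (limma adjusted p = 6.69e-10), and it was called higher in T1 cells (2.41) and at 24 months (1.24) as well. Flt3, which marks MPP4 and was higher there after rescaling but lower with TPM as deposited, stood at 172, 167 and 172 TPM in MPP4 and 94, 81.9 and 116 TPM in MPP3. Its groups did not overlap, but the log2 difference of 0.82 ± 0.13 (limma adjusted p = 6.85e-05) was smaller than at 24 months (2.52), with -0.32 for TPM as deposited. At 24 months Flt3 stood at 175, 178 and 185 TPM in MPP4 T2 and 27, 33.6 and 31.1 TPM in MPP3 T2. The difference between ages was itself called, at -1.69 (limma adjusted p = 1.88e-07).

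Notch1, a receptor that directs T cell fate, stood at 11.5, 11.3 and 10.2 TPM in MPP4 and 2.0, 3.74 and 2.02 TPM in MPP3, a log2 difference of 1.78 (1.31 in T1 cells and 1.03 at 24 months). Rag2, Ccr9 and Ccr7, singled out after their values were seen, were also higher in all 3 comparisons. Rag2, a subunit of the recombinase that cuts antigen receptor genes, averaged 14 ± 1.72 TPM in MPP4 and 0.611 ± 0.64 TPM in MPP3 (SD, n = 3 each). Ccr9, a chemokine receptor of thymus-seeding progenitors, averaged 7.05 ± 0.985 TPM in MPP4 and 0.185 ± 0.263 TPM in MPP3. Other lymphoid genes were higher at 3 months and not at 24 months. Il7r, the interleukin 7 receptor chain, stood at 20.1, 22 and 18.2 TPM in MPP4 and 0.479, 1.93 and 2.31 TPM in MPP3, with a log2 difference of 3.11 at 3 months in T2 cells, 0.11 in T1 cells and 0.13 at 24 months. The T2 cells differed from the T1 cells in this respect by 3.16 (limma adjusted p = 1.04e-06). Ly6d, a surface marker of B-biased lymphoid progenitors, stood at 155, 208 and 206 TPM in MPP4 and 8.64, 7.3 and 5.88 TPM in MPP3, a log2 difference of 4.53, against -2.71 at 24 months. Cd52, a small surface glycoprotein of lymphocytes, stood at 1654, 1780.3 and 1772 TPM in MPP4 and 75.8, 71 and 66.1 TPM in MPP3, a log2 difference of 4.59, against 0.78 in T1 cells and -0.03 at 24 months. Cd27, Ltb, Selplg and Tcf3 were lower in MPP4 at 3 months, and the first 3 of them were called higher at 24 months (singled out after their values were seen). Ltb, a cytokine of the tumour necrosis factor family, averaged 9.15 ± 2.83 TPM in MPP4 and 55.8 ± 2.32 TPM in MPP3 (SD, n = 3 each), with a log2 difference of -2.52 at 3 months and 1.66 at 24 months.

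**Figure D3:**
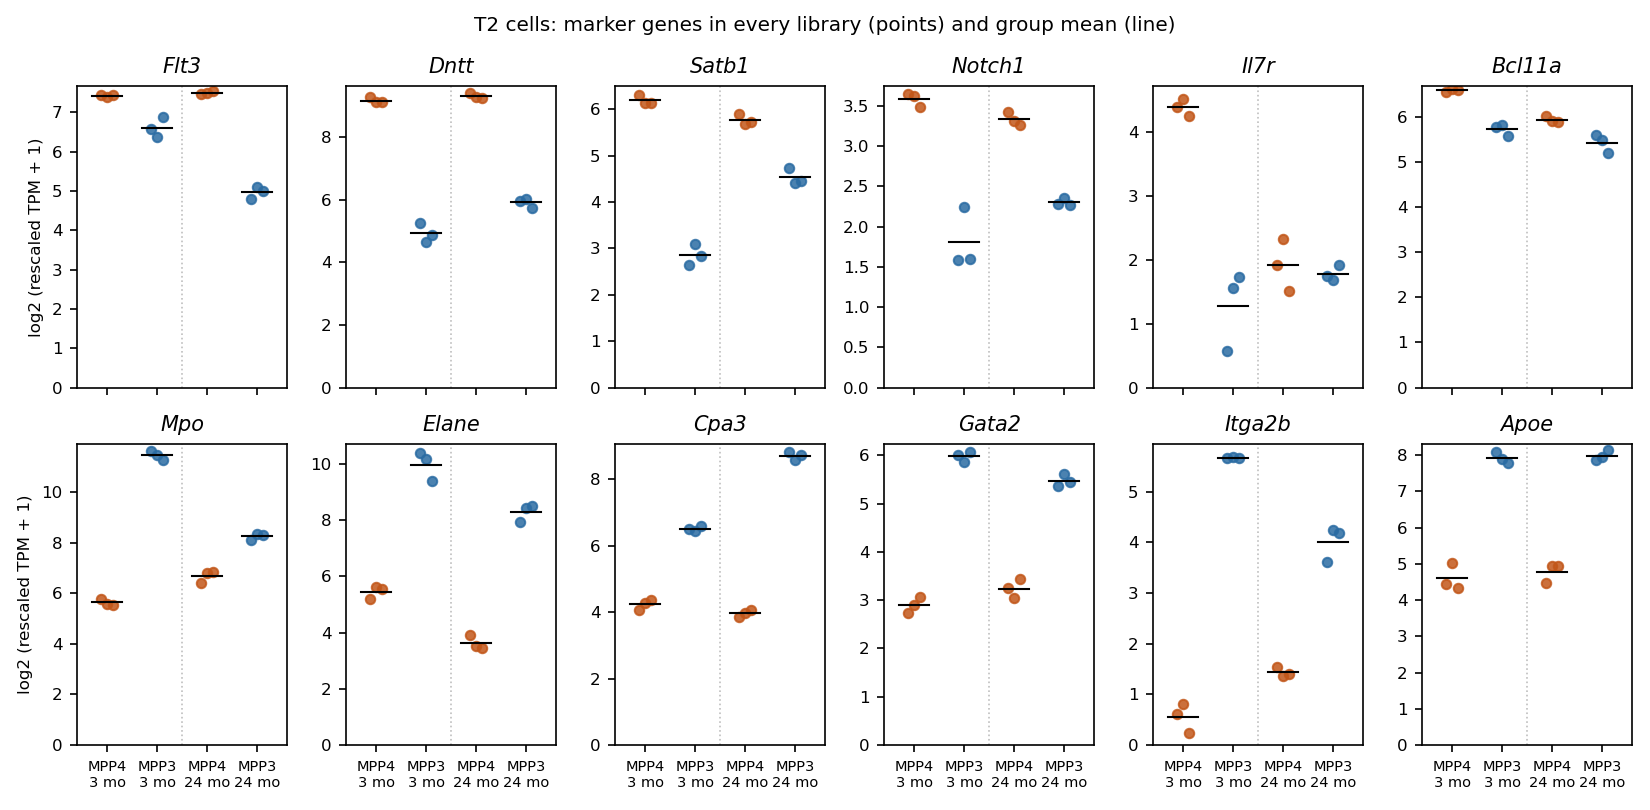
Each panel plots log2(rescaled TPM + 1) of a gene in every T2 library (points) with the group mean (line), MPP4 left of MPP3 at 3 and then 24 months; libraries of each age were rescaled separately. Dntt, Satb1 and Notch1 are higher and Mpo, Elane, Cpa3, Gata2, Itga2b and Apoe lower in MPP4 at both ages, while Il7r is apart at 3 months only.

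Granulocyte and monocyte priming genes were mostly lower in MPP4, led by the granule enzymes. Of 27 tested, 17 were lower, 8 higher and 2 not called, with a median of -0.89. In T1 cells 16 were lower and 7 higher (median -1.39), and at 24 months 14 of 26 were lower and 3 higher (median -0.42). With TPM as deposited 19 were lower and 6 higher, and after the GC and length step 16 were lower and 8 higher. Mpo, the myeloperoxidase of azurophil granules, stood at 53.9, 47.1 and 45.8 TPM in MPP4 and 3148, 2865 and 2488 TPM in MPP3. No library came near the other group. The log2 difference was -5.82 ± 0.12 (limma adjusted p = 5.85e-12), with -4.98 in T1 cells, -1.58 at 24 months and -4.18 after the GC and length step. Elane, neutrophil elastase, stood at 36.1, 48.3 and 45.7 TPM in MPP4 and 1339, 1155 and 673 TPM in MPP3, a log2 difference of -4.52 (-5.51 in T1 cells and -4.67 at 24 months). Ms4a3, a membrane protein of granulocyte and monocyte progenitors, stood at 12, 12.5 and 13.4 TPM in MPP4 and 127, 109.7 and 81.2 TPM in MPP3, a log2 difference of -2.95 (-4.76 at 24 months). Elane and Ms4a3 were singled out after their values were seen. The granule proteases Prtn3 and Ctsg were lower too, by smaller log2 differences of -0.89 and -0.88, and Lyz2, lysozyme, averaged 474 ± 52 TPM in MPP4 and 418 ± 9.87 TPM in MPP3 (SD, n = 3 each) and was not called.

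The transcription factors of the myeloid programme went both ways. Cebpe, which drives late granule genes, averaged 0.179 ± 0.0882 TPM in MPP4 and 13.5 ± 1.09 TPM in MPP3, and Cebpa, the regulator of granulocyte commitment, 0.708 ± 0.203 TPM in MPP4 and 4.0 ± 0.987 TPM in MPP3 (SD, n = 3 each). Spi1, which encodes PU.1, stood at 47.1, 65.4 and 59.3 TPM in MPP4 and 237, 239.8 and 241 TPM in MPP3, a log2 difference of -2.06, but 1.17 at 24 months. Irf8, the factor of monocyte and dendritic fate, stood at 9.96, 8.28 and 6.82 TPM in MPP4 and 43.7, 37.7 and 29.6 TPM in MPP3, a log2 difference of -2.02, but 1.05 at 24 months (limma adjusted p = 0.00198). Gfi1, a repressor needed for neutrophil differentiation, went the other way, averaging 12.1 ± 1.39 TPM in MPP4 and 1.19 ± 0.168 TPM in MPP3, and was not called at 24 months (-0.22). Cebpb, a myeloid and stress factor, was higher as well, at 30.8, 44.6 and 38.9 TPM in MPP4 and 0.0615, 0.0943 and 0.0588 TPM in MPP3, a log2 difference of 5.17, and was not called at 24 months (0.16). Plac8, an abundant transcript of myeloid progenitors, stood at 7949, 8539.6 and 8620.1 TPM in MPP4 and 804, 652 and 549 TPM in MPP3, a log2 difference of 3.66 against -0.35 at 24 months. Spi1, Irf8 and Plac8 thus had opposite directions at 3 and 24 months. The differences between ages, where age and table cannot be told apart, were called at -3.22, -3.07 and 4.03 (limma adjusted p = 2.04e-06, 2.62e-08 and 3.23e-12). Cebpe, Cebpa, Gfi1, Prtn3, Ctsg and Lyz2 were singled out after their values were seen.

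The promoters of 2 lymphoid and 2 granule genes are shown because their genes mark the 2 subsets and were called in 1 direction in all 3 comparisons. Each is the 250 bases before the start of the gene (RefSeq, GRCm38.p6), read 5′ to 3′ on the gene's strand, with Dntt at chr19:41029025-41029274 on the plus strand, Flt3 at chr5:147400490-147400739 on the minus strand, Mpo at chr11:87793534-87793783 on the plus strand and Elane at chr10:79886062-79886311 on the plus strand. In GENCODE vM21 Mpo starts at 87793581 and Elane at 79886247, so part of each of these 2 windows lies inside the gene by that annotation. Capitals mark 4 short motifs on either strand: the E box CANNTG of E proteins, GATAA of GATA factors, GAGGAA of the Ets factor PU.1, and TGACCA, the motif of Bcl11a.
Dntt: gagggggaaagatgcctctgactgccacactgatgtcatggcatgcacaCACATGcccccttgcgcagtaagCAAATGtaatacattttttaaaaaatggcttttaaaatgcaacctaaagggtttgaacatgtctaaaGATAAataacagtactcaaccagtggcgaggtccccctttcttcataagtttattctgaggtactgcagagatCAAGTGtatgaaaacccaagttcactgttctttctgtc
Flt3: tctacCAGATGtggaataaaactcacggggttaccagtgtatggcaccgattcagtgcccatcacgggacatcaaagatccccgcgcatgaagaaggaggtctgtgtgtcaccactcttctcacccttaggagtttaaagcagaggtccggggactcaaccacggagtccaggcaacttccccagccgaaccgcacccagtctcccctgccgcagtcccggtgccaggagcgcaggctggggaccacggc
Mpo: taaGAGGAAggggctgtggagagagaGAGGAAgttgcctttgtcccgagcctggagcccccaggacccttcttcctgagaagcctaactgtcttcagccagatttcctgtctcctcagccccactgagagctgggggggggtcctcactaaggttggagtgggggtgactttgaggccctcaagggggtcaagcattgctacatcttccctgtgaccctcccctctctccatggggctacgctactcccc
Elane: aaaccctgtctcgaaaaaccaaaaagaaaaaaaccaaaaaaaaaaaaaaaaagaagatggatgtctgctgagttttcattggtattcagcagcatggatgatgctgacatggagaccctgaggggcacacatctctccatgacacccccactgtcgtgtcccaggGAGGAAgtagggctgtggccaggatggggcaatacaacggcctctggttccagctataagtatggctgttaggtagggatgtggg
The Dntt window held 3 E boxes and 1 GATAA, the Flt3 window 1 E box, the Mpo window 2 GAGGAA and the Elane window 1 GAGGAA. The 4 windows held 0 TGACCA. Of 32851 promoters listed, 66.2% hold an E box, 22.6% GATAA, 23.3% GAGGAA and 11.4% TGACCA in the same window, so each match is common and is a description of these letters only.

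The genes of surface markers commonly used to gate these progenitors were checked in full. Kit, the stem cell factor receptor, stood at 75, 64.5 and 67.3 TPM in MPP4 and 102, 111 and 98.1 TPM in MPP3, a log2 difference of -0.58. Cd34 stood at 318, 279 and 303 TPM in MPP4 and 892, 941 and 929 TPM in MPP3, a log2 difference of -1.62. Both genes were lower in MPP4 at 3 months, whereas at 24 months Cd34 was higher in MPP4 by 0.29 (limma adjusted p = 0.0435) and Kit was not called (-0.25). Ly6a, which encodes Sca-1, stood at 1211, 1238 and 1198 TPM in MPP4 and 60.4, 66.8 and 54.7 TPM in MPP3. Its log2 difference was 4.31 at 3 months and -0.03 at 24 months, where MPP4 held 622, 577 and 612 TPM and MPP3 646, 615 and 592 TPM. Cd48, which both subsets carry, stood at 2103, 2341 and 2234 TPM in MPP4 and 216, 209 and 187 TPM in MPP3, a log2 difference of 3.44 against -0.43 at 24 months. Slamf1, which encodes CD150, was below the level tested. Itga2b, which encodes CD41, stood at 0.527, 0.748 and 0.173 TPM in MPP4 and 50.1, 50.3 and 49.7 TPM in MPP3, a log2 difference of -5.12 (-3.37 in T1 cells and -2.58 at 24 months). Fcgr3, an Fc receptor gene of the CD16/32 gate, stood at 1.93, 3.11 and 2.87 TPM in MPP4 and 45, 39.3 and 20.5 TPM in MPP3, a log2 difference of -3.25 (-1.89 in T1 cells and -1.86 at 24 months). Fcgr2b, another Fc receptor gene, averaged 16.1 ± 2.5 TPM in MPP4 and 22.7 ± 4.44 TPM in MPP3 (SD, n = 3 each), a log2 difference of -0.46 (limma adjusted p = 0.0281). That call was lost without MPP3 library 1, MPP4 library 1 or MPP4 library 3 (limma adjusted p = 0.0869, 0.120 and 0.0573). Of the 9 gate genes tested, Flt3 was higher (lower with TPM as deposited) and Itga2b, Fcgr3 and Fcgr2b were lower in MPP4 in T2 and T1 cells of 3 months and at 24 months; Il7r, the remaining one, is given above.

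Genes of mast cells, basophils and eosinophils were mostly lower in MPP4. Of 13 tested, 8 were lower and 2 higher (median -0.96), against 17 lower and 0 higher of 19 at 24 months (median -2.19) and 7 lower and 1 higher of 11 in T1 cells. Cpa3, the mast cell carboxypeptidase, stood at 15.8, 18.4 and 19.6 TPM in MPP4 and 88.6, 85.6 and 95.4 TPM in MPP3, a log2 difference of -2.27 ± 0.13 (limma adjusted p = 3.48e-09) and -4.74 at 24 months. Gata2, the factor shared by stem cells and the mast and megakaryocyte lineages, stood at 5.64, 6.44 and 7.42 TPM in MPP4 and 63, 56.8 and 66.5 TPM in MPP3, a log2 difference of -3.08 (-2.23 at 24 months). Hdc, which makes histamine, averaged 2.85 ± 0.349 TPM in MPP4 and 28.9 ± 2.38 TPM in MPP3 (SD, n = 3 each). Mcpt8, a basophil protease singled out after its values were seen, was one of the 2 higher, at 63, 58.7 and 63 TPM in MPP4 and 19.2, 43.3 and 13.4 TPM in MPP3, a log2 difference of 1.42 (limma adjusted p = 0.0081), and was lower at 24 months (-1.86). Cpa3 was even across the MPP3 libraries, while Prg2, Tpsb2 and Epx were not. Prg2, an eosinophil granule protein, stood at 2.99, 0.848 and 5.04 TPM in MPP4 and 2.46, 113 and 232 TPM in MPP3 and was not called (limma adjusted p = 0.142). Tpsb2, a mast cell tryptase, was listed at 0 in every MPP4 library and stood at 0, 38.9 and 24.8 TPM in MPP3, and Epx, eosinophil peroxidase, at 0, 0 and 0 TPM in MPP4 and 0.0295, 6.52 and 32.4 TPM in MPP3. Libraries 2 and 3 of MPP3 thus carried these 3 transcripts and library 1 nearly none (the 3 were singled out after their values were seen). Fcer1g, the Fc receptor gamma chain, was the other gene higher, at 456, 496 and 444 TPM in MPP4 and 66.1, 64.4 and 62.8 TPM in MPP3, a log2 difference of 2.83 against -1.36 at 24 months.

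Megakaryocyte and platelet genes were lower in MPP4 for 9 of 15 tested and higher for 5 (median -0.87), with 7 of 13 lower and 1 higher at 24 months. The median turned to 0.27 to 0.30 without any 1 MPP3 library, since genes detected in MPP3 alone then fail the filter of 3 libraries. Selp, P-selectin, stood at 1.47, 1.31 and 2.15 TPM in MPP4 and 51.5, 53.5 and 42.4 TPM in MPP3, a log2 difference of -4.25 (-1.76 at 24 months). Esam, an adhesion molecule of stem cells, stood at 2.52, 2.3 and 1.77 TPM in MPP4 and 55.9, 60.2 and 46.3 TPM in MPP3, a log2 difference of -4.11 (-2.14 at 24 months). Selp and Esam were called lower in MPP4 in all 3 comparisons. Pf4, a platelet chemokine, was higher, averaging 40.5 ± 5.92 TPM in MPP4 and 4.24 ± 2.87 TPM in MPP3 (SD, n = 3 each; singled out after its values were seen), and lower at 24 months (-2.13). Of 31 stem cell and quiescence genes, 12 were higher and 16 lower (median -0.69), with 7 lower and 2 higher in all 3 comparisons. Without MPP3 library 1, 2 or 3 that median was -0.04, 0.13 and -0.28, and fewer genes then pass the filter.

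Erythroid genes were lower for 10 of 21 and higher for 6 (median -1.20), and at 24 months lower for 12 of 18 and higher for 2. In T1 cells 6 of 16 were higher and 4 lower (median 0.44). Without any 1 MPP3 library the median was 0.80 to 0.81, by the same effect of the filter. The factors Klf1, Nfe2 and Gfi1b were lower, with Klf1, the erythroid master regulator, at 0.561 ± 0.102 TPM in MPP4 and 11.6 ± 6.97 TPM in MPP3 (SD, n = 3 each). Nfe2, which controls globin and platelet genes, stood at 87.6, 91.4 and 84.4 TPM in MPP4 and 552, 535 and 554 TPM in MPP3, and Gfi1b, a repressor of the same lineages, at 3.69, 3.22 and 2.97 TPM in MPP4 and 30.3, 24.6 and 24.3 TPM in MPP3. The globin transcripts Hba-a1 and Hbb-bt were higher in MPP4. Hba-a1, an alpha globin, stood at 171, 299 and 249 TPM in MPP4 and 0.0027, 1.07 and 0 TPM in MPP3, and Hbb-bt, a beta globin, at 72.3, 87.4 and 87.8 TPM in MPP4 and 3.57, 1.38 and 4.21 TPM in MPP3. Hba-a2, whose coding sequence is nearly that of Hba-a1, stood at 101, 1.01 and 56.5 TPM in MPP4 and 7.47, 8.38 and 5.1 TPM in MPP3 and was not called (Klf1 and Hba-a2 were singled out after their values were seen). The sources used here leave unsaid how reads common to near-identical copies were divided, so values of single globins are uncertain. At 24 months Hbb-bt was lower in MPP4 (log2 difference -2.64), while Nfe2 and Gfi1b were not called (0.10 and -0.43).

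Markers of mature cells that a sort of progenitors could hold were read as lists. Macrophage genes summed to 748, 900.0 and 808 TPM in MPP4 and 992, 994 and 956 TPM in MPP3, and of 15 tested 12 were lower and 2 higher in MPP4 (median -1.71), against 11 lower and 1 higher of 16 at 24 months. Apoe, the lipid carrier, stood at 21, 31.4 and 19.3 TPM in MPP4 and 271, 239.6 and 221 TPM in MPP3, a log2 difference of -3.32 (-3.36 in T1 cells and -3.20 at 24 months), and C1qb, a complement chain of macrophages singled out after its values were seen, averaged 6.09 ± 2.64 TPM in MPP4 and 21.3 ± 3.84 TPM in MPP3 (SD, n = 3 each). The 2 higher were Ctss and Cd68. Ctss, a lysosomal protease, stood at 220.1, 247 and 221 TPM in MPP4 and 16.5, 13 and 14.7 TPM in MPP3, a log2 difference of 3.87 (0.74 in T1 cells and 0.22, not called, at 24 months). Cd68, a lysosomal membrane protein of macrophages, averaged 51.1 ± 4.2 TPM in MPP4 and 31.8 ± 1.19 TPM in MPP3, a log2 difference of 0.66 (0.68 at 24 months), and was called lower in T1 cells. Mature neutrophil genes summed to 528, 503 and 544 TPM in MPP4 and 27.8, 368 and 21.9 TPM in MPP3, with MPP3 library 2 far above the other two. Of 10 tested, 4 were higher, 0 lower and 6 not called, against 7 of 12 lower and 0 higher at 24 months. The median was 1.43, or 2.19 without MPP3 library 2, and after the GC and length step 0 were called. S100a8, a calcium-binding protein of neutrophils, stood at 315, 286 and 297 TPM in MPP4 and 9.6, 38.7 and 2.86 TPM in MPP3, and was higher by a log2 difference of 4.68 (limma adjusted p = 0.00935), or 5.51 without MPP3 library 2. Ngp, a secondary granule protein singled out after its values were seen, stood at 6.97, 17.1 and 14.8 TPM in MPP4 and 9.1, 225 and 4.24 TPM in MPP3. At 24 months S100a8 was lower in MPP4 (log2 difference -2.12). Mature T and NK genes summed to 55.4, 72.5 and 53.5 TPM in MPP4 and 11.8, 14.3 and 13.1 TPM in MPP3, with Cd8a at 0 in every library, Cd3e at 0 in every MPP4 library and Ccl5 making most of the sum at 46.6, 63.6 and 46.6 TPM in MPP4 and 4.54, 7.09 and 9.28 TPM in MPP3. Of the 3 tested, 1, Ccl5, was higher (log2 difference 2.77), but it was lower at 24 months (-0.56) and not called in T1 cells (-0.46). Of 13 stromal and endothelial genes, 3 were at 0 and 9 under 1 TPM in every library, and the sum was 70.4 to 76.2 TPM in MPP4 and 95.4 to 108 TPM in MPP3; of 3 tested, Emcn was higher and Pecam1 and Vcam1 lower, and Pecam1 was higher at 24 months (0.51). The part of other cells in the differences was not tested, and fewer cells of a type cannot be told apart from less RNA per cell.

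The B lineage genes did not move together. Of 13 tested, 4 were higher, 4 lower and 5 not called (median 0.31, and -0.83 with TPM as deposited). Vpreb3, a part of the surrogate light chain complex, stood at 29, 33.7 and 23.9 TPM in MPP4 and 12.3, 9.95 and 5.59 TPM in MPP3, a log2 difference of 1.59, while in T1 cells it was -5.04, at 24 months -2.11 and after the GC and length step -0.19. Igll1, another surrogate light chain gene, stood at 10.2, 14.6 and 12.2 TPM in MPP4 and 41.6, 21 and 25.6 TPM in MPP3, a log2 difference of -1.14, with -5.63 in T1 cells and -3.12 at 24 months. In T1 cells 11 of 15 B lineage genes were lower in MPP4 and the median was -2.88. The difference between T2 and T1 cells was called for Vpreb3 at 6.60 and for Igll1 at 4.52 (limma adjusted p = 9.16e-10 and 2.88e-07). Jchain, the joining chain of secreted antibodies, stood at 257, 295 and 267 TPM in MPP4 and 0, 0 and 0.284 TPM in MPP3. At 24 months it ran the other way, at 20.9, 23.6 and 20.5 TPM in MPP4 and 3324, 2492 and 2611 TPM in MPP3. Mzb1, a chaperone of plasma cells, averaged 7.37 ± 2.03 TPM in MPP4 and 4.41 ± 3.13 TPM in MPP3 (SD, n = 3 each) and was not called at 3 months (limma adjusted p = 0.122; 0.0250 without MPP3 library 1). Of the 5 mature B and plasma cell genes tested 1 was higher and 2 lower, and the whole list summed to 344 to 387 TPM in MPP4 and 159 to 183 TPM in MPP3. In the list of T, NK and innate lymphoid genes 5 of 13 were higher and 6 lower (median -0.91, or 1.23 to 1.33 without any 1 MPP3 library). Gata3, a T cell and innate lymphoid factor, stood at 1.78, 2.14 and 1.25 TPM in MPP4 and 21.4, 19.4 and 19.4 TPM in MPP3, and Nkg7, a granule protein of killer cells, at 2169, 2446 and 2249 TPM in MPP4 and 731, 611 and 557 TPM in MPP3. Nkg7 was called in the opposite direction at 24 months, with a log2 difference of -0.91 against 1.86 at 3 months.

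MHC class II genes, which present antigen to T cells, were mostly higher in MPP4. Of 9 MHC class II genes tested 7 were higher and 1 lower (median 1.23), with 7 higher and 1 lower in T1 cells and 6 higher and 0 lower at 24 months. With TPM as deposited 4 were higher and 2 lower. Cd74, the invariant chain, stood at 127, 212 and 197 TPM in MPP4 and 34.8, 34.6 and 45.9 TPM in MPP3, a log2 difference of 2.16 (0.46 in T1 cells and 0.88 at 24 months). H2-Ab1, a class II beta chain, stood at 173, 249 and 215 TPM in MPP4 and 57.8, 52.5 and 59.5 TPM in MPP3, a log2 difference of 1.87, and was not called at 24 months (0.14). H2-Ob, which edits peptide loading in B cells, averaged 80.4 ± 6.87 TPM in MPP4 and 34 ± 3.34 TPM in MPP3 (SD, n = 3 each), and was not called with TPM as deposited (log2 difference 0.10). B2m, the light chain of class I molecules, was the most abundant of the genes named here, at 46031, 46828 and 46499 TPM in MPP4 and 2703, 2341 and 2158 TPM in MPP3, and it overlaps Patl2 in the genome. Its log2 difference of 4.28 was 1.31 after the GC and length step, and at 24 months B2m was lower in MPP4 (-0.47, limma adjusted p = 0.013). Of 9 dendritic cell genes 6 were higher and 2 lower (median 0.82, and -0.32 with TPM as deposited). Ly86, a partner of a Toll-like receptor family protein, averaged 45.9 ± 8.31 TPM in MPP4 and 4.98 ± 1.71 TPM in MPP3. Siglech and Clec9a, which mark plasmacytoid and conventional dendritic cells, were below the level tested.

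The largest differences toward MPP4 included secreted proteins and chemokines. Wfdc17, a small secreted protease inhibitor, stood at 7405, 8229 and 7709 TPM in MPP4 and 18.9, 14 and 14.2 TPM in MPP3. No library came near the other group, and the log2 difference was 8.88 ± 0.13 (limma adjusted p = 2.60e-13). It was smaller in T1 cells (5.43) and at 24 months (1.84) and was called in both. Wfdc18, a paralog whose single value is uncertain for that reason, stood at 641, 697 and 669 TPM in MPP4 and 1.86, 0 and 0.29 TPM in MPP3. The chemokines Ccl3 and Ccl4, which recruit leukocytes, followed. Ccl3 stood at 3919, 4539.9 and 4474 TPM in MPP4 and 43.5, 37.8 and 32.5 TPM in MPP3, a log2 difference of 6.80 (4.10 in T1 cells and 1.90 at 24 months), and Ccl4 at 6338, 7009 and 6808 TPM in MPP4 and 92.4, 70.4 and 57.9 TPM in MPP3. Cox6a2, a subunit of cytochrome c oxidase, stood at 182, 239 and 217 TPM in MPP4 and 0.404, 0 and 0.103 TPM in MPP3, and was higher by 2.24 at 24 months. Taf10, Cebpb and Btg3 were not called at 24 months. Taf10, a subunit of the general transcription factor TFIID, stood at 283, 299.8 and 314 TPM in MPP4 and 0.0891, 0.63 and 1.09 TPM in MPP3, with a log2 difference of -0.34 at 24 months, and overlaps Ilk on the opposite strand. Cebpb is given above, and Btg3, which restrains cell growth, stood at 116, 100.3 and 137 TPM in MPP4 and 3.73, 1.2 and 2.13 TPM in MPP3 (0.03 at 24 months). Ost4, Ifi27l2a, Nsmce4a, AA467197, Hba-a1, Jchain and S100a9 completed the 15 largest, with log2 differences of 5.22 to 7.98; Ost4 was lower at 24 months (-0.62). S100a9 stood at 156, 145 and 168 TPM in MPP4 and 1.3, 18 and 0.702 TPM in MPP3, and was lower in MPP4 at 24 months (-1.96).

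Of the 15 genes lowest in MPP4, Mpo, Itga2b, Qsox1 and Sdsl were also lower at 24 months. Rbm38, an RNA-binding target of p53, stood at 3.3, 2.38 and 3.77 TPM in MPP4 and 441, 358 and 344 TPM in MPP3, a log2 difference of -6.53 ± 0.16 (limma adjusted p = 1.33e-11) and -0.05 at 24 months. Psap, the precursor of lysosomal saposins, stood at 7.33, 5.61 and 4.5 TPM in MPP4 and 240.4, 217 and 259 TPM in MPP3 (0.13 at 24 months). Arpc1b, a subunit of the Arp2/3 actin nucleator, stood at 24.5, 40.3 and 31.9 TPM in MPP4 and 1114, 1063 and 1083 TPM in MPP3, with 0.65 at 24 months, called in the opposite direction. Ptbp1, a splicing repressor, stood at 4.03, 3.41 and 3.91 TPM in MPP4 and 139, 142 and 169 TPM in MPP3 (0.18 at 24 months). Psap and Ptbp1 are known from nearly every cell type. Acads, Hcls1, Lag3, Aldh2, Chtf8, Qsox1, Sdsl, Polr3gl and Mfsd12 had log2 differences between -5.56 and -4.79, with -0.60 for Qsox1 and -1.29 for Sdsl at 24 months, where Lag3 and Mfsd12 were not tested. Arpc1b, Ptbp1, Chtf8, Polr3gl and Mfsd12 overlap a gene on the opposite strand. The same holds for Taf10, Cebpb, Btg3, Cox6a2 and Ost4 of the 15 highest, and Nsmce4a overlaps Fgfr2 on the same strand. The sources used here do not say whether counting used strand. Across all genes 4 were listed at 0 in every MPP4 library with at least 10 TPM in every MPP3 library, and 0 the other way round.

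Groups of housekeeping genes were mostly higher in MPP4 at 3 months and mostly lower or not called at 24 months. Of 76 oxidative phosphorylation genes 66 were higher and 10 lower (median 2.82), against 5 higher and 49 lower at 24 months (median -0.58). Of 79 cytosolic ribosomal protein genes 75 were higher and 3 lower (median 1.88), against 0 higher and 62 lower at 24 months, and in T1 cells 41 were higher and 29 lower (median 0.19). Of 74 mitochondrial ribosomal protein genes 59 were higher and 12 lower (median 1.59), against 3 higher and 40 lower at 24 months. Atp5h, a subunit of ATP synthase, stood at 3252, 3502 and 3425 TPM in MPP4 and 229, 185 and 193 TPM in MPP3, with a log2 difference of 4.07 and, at 24 months, -0.79. Rps25, a small-subunit protein, stood at 10772, 11079 and 8856 TPM in MPP4 and 563, 411 and 386 TPM in MPP3, and was not called at 24 months (-0.17). The median longest transcript was 1141 bases for oxidative phosphorylation, 1106 bases for cytosolic ribosomal proteins and 3158 bases over all genes. After the GC and length step the medians were 1.38, 0.72 and 0.74 for the 3 groups, and with TPM as deposited 1.68, 0.74 and 0.45. Of 72 histone genes 62 were higher and 5 lower (median 2.33), against 6 higher and 6 lower of 74 at 24 months. Hist1h2ao, a replication-dependent histone gene, stood at 3110.0, 3143 and 3730.4 TPM in MPP4 and 191, 167 and 129 TPM in MPP3, and was not called at 24 months (-0.42). Histone and ribosomal protein genes have near-identical copies, so single values are uncertain.

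Glycolysis genes were lower in MPP4 at 3 months. Of 18 tested 15 were lower and 3 higher (median -1.78), against 3 lower and 2 higher of 17 at 24 months (median 0.05), and 14 were lower after the GC and length step. Pkm, the last kinase of the pathway, stood at 74.4, 66.6 and 75.4 TPM in MPP4 and 835, 856 and 860.1 TPM in MPP3, a log2 difference of -3.54 (0.29 at 24 months). Ldha, which makes lactate, stood at 278, 271 and 267 TPM in MPP4 and 1163, 1103 and 1053 TPM in MPP3, a log2 difference of -2.02 (-0.40 at 24 months). Ldha was called lower at both ages and Pkm at 3 months alone. Proliferation genes were lower for 19 of 30 and higher for 8 (median -0.82), against 6 and 6 at 24 months. Mcm3, a subunit of the replicative helicase, stood at 71.6, 61.6 and 61.5 TPM in MPP4 and 339, 324 and 349 TPM in MPP3 (-2.36 in log2 difference and -0.50 at 24 months), and Plk1, a mitotic kinase, averaged 9.32 ± 1.14 TPM in MPP4 and 81.6 ± 14.9 TPM in MPP3 (SD, n = 3 each). Immediate early genes were lower for 13 of 22 and higher for 9 (median -0.54). Jun, an AP-1 subunit, stood at 39.8, 34 and 32.6 TPM in MPP4 and 815, 794 and 687 TPM in MPP3, a log2 difference of -4.39 (-3.95 in T1 cells and -0.08 at 24 months), while Dusp2, a phosphatase induced with it, stood at 246, 196 and 229.7 TPM in MPP4 and 7.26, 7.97 and 5.55 TPM in MPP3. Dusp2 was called higher at 24 months too (0.61). Myb, a factor of immature blood cells, stood at 176, 161 and 174 TPM in MPP4 and 43.2, 37.2 and 40.7 TPM in MPP3, a log2 difference of 2.05, and was lower at 24 months (-0.64).

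**Figure D4:**
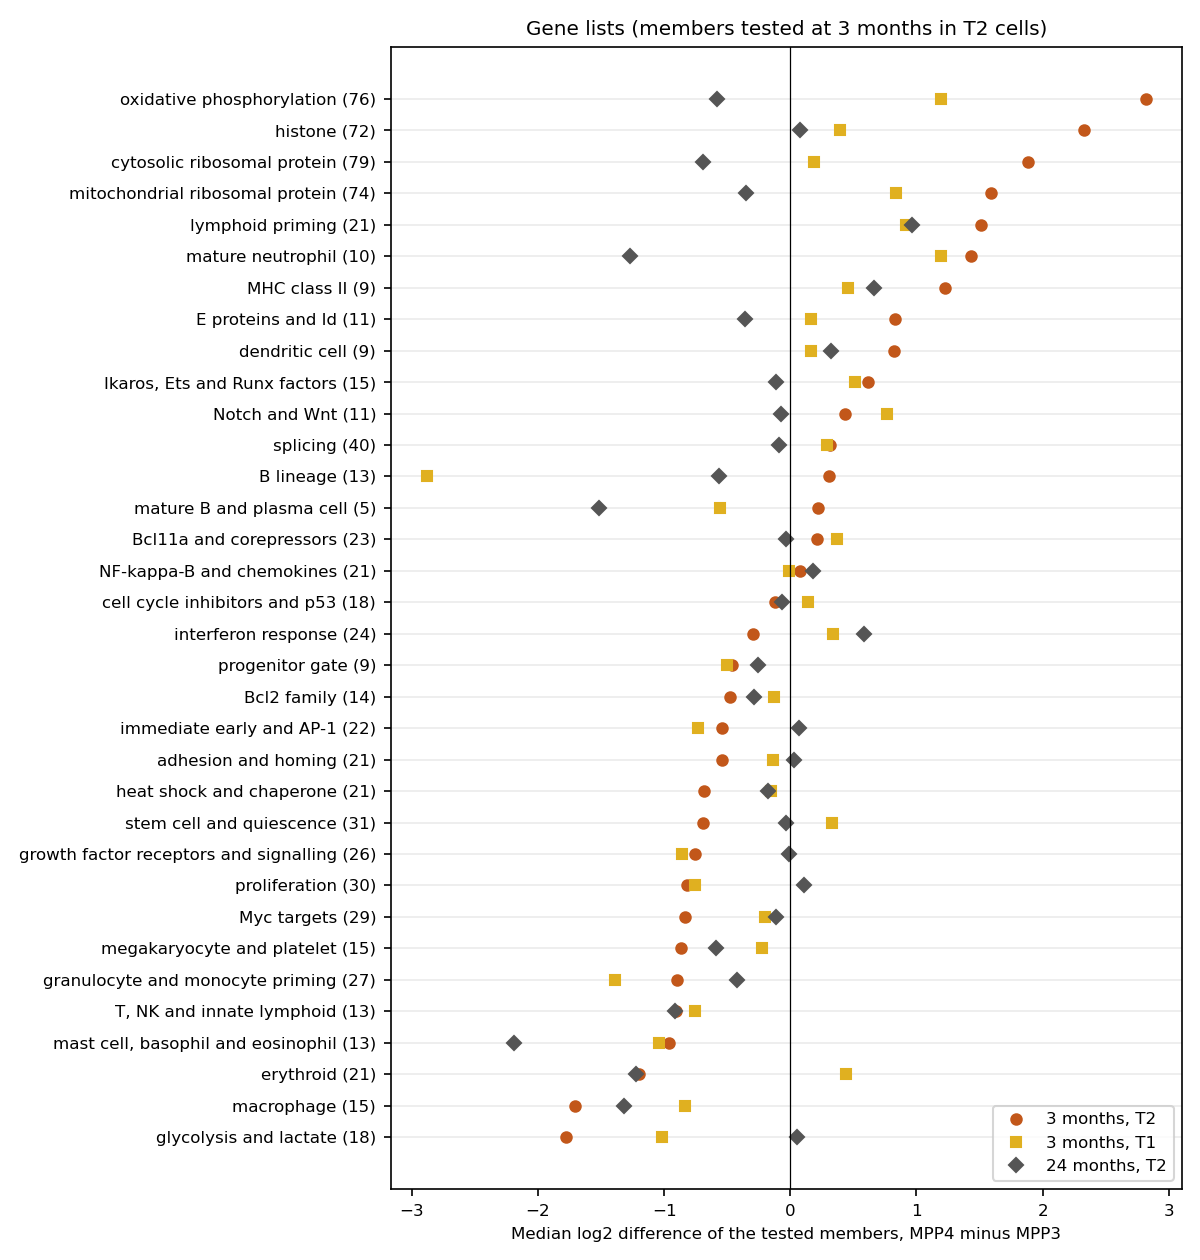
Median log2 difference of MPP4 minus MPP3 over the tested members of each list with at least 5 tested (members tested in brackets; other comparisons use their own tested members). Oxidative phosphorylation (2.82), histones (2.33) and ribosomal proteins (1.88 and 1.59) are furthest right in T2 cells of 3 months and at 0.07 or below at 24 months. Lymphoid priming is right of 0 and mast cell and macrophage genes left of 0 in all 3 comparisons.

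The remaining lists held genes of both directions, some lists mostly lower and some mostly higher, against 37.8% higher and 42% lower over all genes. Interferon response genes counted 9 higher and 10 lower of 24 (median -0.30), while at 24 months 13 were higher and 0 lower. Xaf1, an interferon-induced gene, averaged 118 ± 4.26 TPM in MPP4 and 15.3 ± 1.62 TPM in MPP3 and Irf7, the interferon regulator, 9.42 ± 0.924 TPM in MPP4 and 60.3 ± 12.7 TPM in MPP3 (SD, n = 3 each). Xaf1 was called higher at both ages (2.87 and 0.64 in log2 difference), while Irf7 was lower at 3 months (-2.54) and higher at 24 months (1.26). Genes of NF-kappa-B and chemokines counted 10 higher and 6 lower of 21 (median 0.08, and -0.57 with TPM as deposited), with 4 higher and 0 lower in all 3 comparisons. E protein and Id genes counted 6 higher and 3 lower of 11, and Ikaros, Ets and Runx factors 9 higher and 4 lower of 15, with medians of 0.83 and 0.61 that were -0.14 and -0.52 with TPM as deposited. Id2, an inhibitor of E proteins, stood at 61.9, 77.6 and 74.7 TPM in MPP4 and 11.8, 13.3 and 13.6 TPM in MPP3, and was called neither in T1 cells nor at 24 months (log2 differences 0.16 and -0.23). Heat shock and chaperone genes counted 7 higher and 13 lower of 21. Myc targets counted 10 and 17 of 29, and growth factor receptors and signalling 7 and 17 of 26. Adhesion and homing counted 7 and 10 of 21, cell cycle inhibitors and p53 genes 6 and 8 of 18, and the Bcl2 family 5 and 8 of 14. Most were lower in the heat shock, Myc target, growth factor receptor and Bcl2 lists, with medians of -0.68, -0.84, -0.76 and -0.47. The median of granulocyte and monocyte priming genes was -0.89. Bcl2l1, which encodes the survival protein Bcl-xL, averaged 1.57 ± 0.557 TPM in MPP4 and 69.3 ± 4.16 TPM in MPP3, and Mcl1, another survival protein, 125 ± 15.7 TPM in MPP4 and 22.7 ± 4.38 TPM in MPP3. At 24 months Bcl2l1 was again lower in MPP4 (-1.14), while Mcl1 was lower there (-0.43) and higher at 3 months (2.42). Splicing genes counted 23 higher and 13 lower of 40 (median 0.32, and -0.82 with TPM as deposited), and Notch and Wnt genes 5 higher and 2 lower of 11 (median 0.43, and -0.49 with TPM as deposited).

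Set against the 24-month T2 libraries, fewer genes kept their direction than changed it. Of 10763 genes tested at both ages, 8594 were called at 3 months and 3033 at 24 months, and 2497 at both. Of these 2497, 932 (37.3%) had the same direction, 493 higher and 439 lower in MPP4, and 1565 the opposite one. The 932 were 10.8% of the 3-month calls and 30.7% of the 24-month calls. Pearson r of the log2 differences was -0.0958 and Spearman rho -0.16 across genes, which are not independent and share the libraries of each comparison. The difference between ages was called for 8515 of 11792 genes (72.2%), 3992 higher (33.9%) and 4523 lower (38.4%) at 3 months. Each group in it came from a table of its own, so age and table cannot be told apart.

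**Figure D5:**
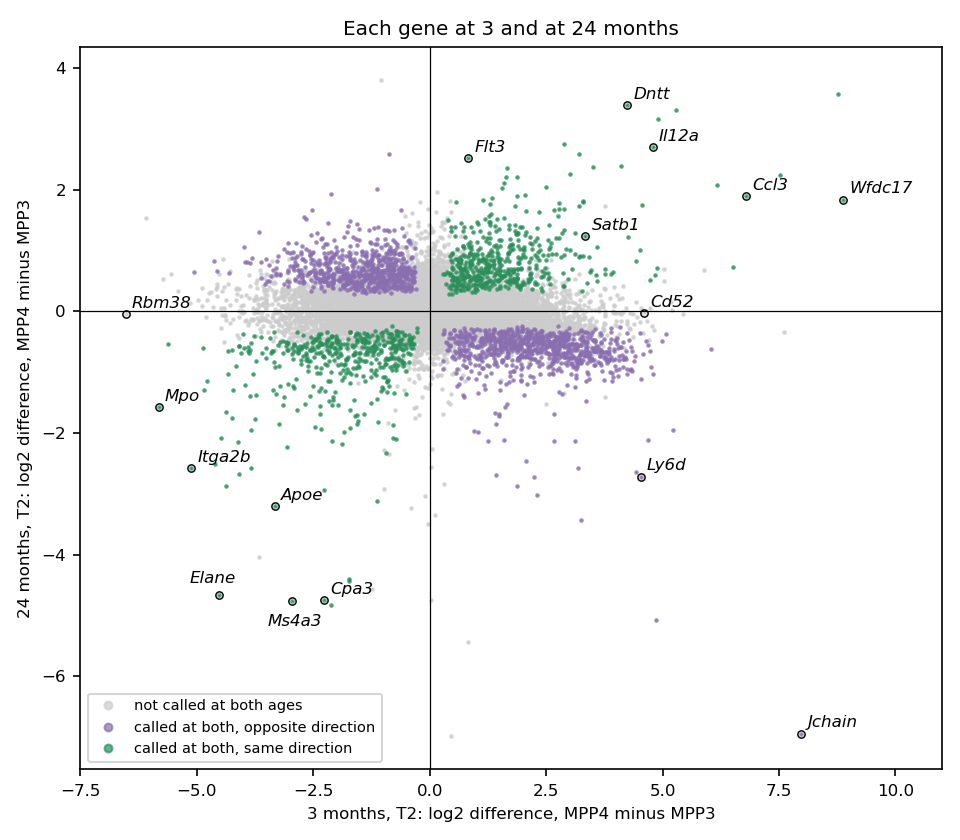
Each point is a gene, with its log2 difference of MPP4 minus MPP3 in T2 cells at 3 months (x axis) and at 24 months (y axis). Of genes called at both ages 932 have the same direction (green), among them Dntt, Il12a, Ccl3, Mpo, Elane, Cpa3, Ms4a3 and Apoe, and 1565 the opposite one (violet), among them Ly6d and Jchain.

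A smaller set kept its direction in all 3 comparisons. Of 10684 genes tested in T2 and T1 cells of 3 months and in T2 cells of 24 months, 408 were called higher and 372 lower in MPP4 in all of them (7.3%), and 1391 were called in all with unlike directions. The GC and length step left 285 of the 408 called higher and 307 of the 372 called lower. By list, 9 of 21 lymphoid priming genes were higher and 1 lower, 4 of 9 MHC class II genes were higher, 11 of 26 granulocyte and monocyte genes were lower and 3 higher, 5 of 10 mast cell genes and 7 of 14 macrophage genes were lower, and 1 of 76 oxidative phosphorylation and 0 of 79 cytosolic ribosomal protein genes were higher. The genes named next are among the 16 in each direction with the largest value of the smallest of the 3 log2 differences, a choice made after the values were seen. Il12a, a subunit of interleukins 12 and 35, stood at 1167, 1447 and 1337 TPM in MPP4 and 49.3, 47 and 43.6 TPM in MPP3, with log2 differences of 4.79, 3.26 in T1 cells and 2.70 at 24 months. Ddx4, an RNA helicase known from germ cells, averaged 47.7 ± 2.1 TPM in MPP4 and 0.715 ± 0.678 TPM in MPP3 (SD, n = 3 each), with log2 differences of 4.91, 3.37 in T1 cells and 3.16 at 24 months. Both genes separated the libraries fully, and at 24 months Il12a stood at 550.5, 565 and 528 TPM in MPP4 and 82.1, 76.5 and 92.2 TPM in MPP3. Cd33, a sialic acid binding receptor, averaged 15 ± 1.24 TPM in MPP4 and 1.22 ± 0.671 TPM in MPP3 (SD, n = 3 each), and Emp1, a membrane protein, 42.1 ± 11 TPM in MPP4 and 1.46 ± 0.114 TPM in MPP3. Among those lower, Emilin2, an extracellular matrix protein, averaged 0.386 ± 0.259 TPM in MPP4 and 27.5 ± 3.37 TPM in MPP3, Hp, haptoglobin, 0.7 ± 0.734 TPM in MPP4 and 36.5 ± 12.8 TPM in MPP3, and Siglecf, a receptor of eosinophils, 1.87 ± 0.64 TPM in MPP4 and 14.8 ± 2.65 TPM in MPP3. Fgf3, a growth factor gene, was listed at 0 in every MPP4 library and stood at 24.8, 19.5 and 26.5 TPM in MPP3.

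The comparison was also set against that of T1 cells, which were deposited in the same 2 tables. The libraries of T1 cells differed from those of T2 cells in make-up: Y-linked transcripts summed to 0 in every MPP4 T1 library and to 64.2 to 78.9 TPM in MPP3 T1, and Xist stood at 81.9 to 105 TPM in MPP4 T1 and 28.2 to 32.7 TPM in MPP3 T1. Transcripts under 1000 bases held 21% to 21.9% of the TPM in MPP4 T1 and 13.6% to 13.7% in MPP3 T1. The part of the Y-linked and Xist difference in the difference between T2 and T1 cells was not tested, and genes of the X and Y chromosomes are left out of it. The difference between T2 and T1 cells was called for 4340 of 11948 genes (36.3%), 2395 higher (20%) and 1945 lower (16.3%) in T2 cells. Its SD over genes was 0.84, against 1.71 for the T2 comparison itself. Cd52 showed the smallest adjusted p, with 1654, 1780.3 and 1772 TPM in MPP4 T2 and 75.8, 71 and 66.1 TPM in MPP3 T2, and a difference between T2 and T1 cells of 3.90 (limma adjusted p = 1.39e-12). Fcer1g, Ifi27l2a, Wfdc17 and B2m differed in the same direction by 2.75, 4.15, 3.55 and 2.15. The longest transcripts of these 5 genes have 463 to 860 bases. Over all genes of 500 to 1000 bases the difference between T2 and T1 cells had a median of 1.41, with 73.4% called higher. Genes under 500 bases, among them Ifi27l2a, had a median of 0.36, with 25.3% called higher. For 2000 to 3000 bases the median was -0.10. After the GC and length step it was 2.91 for Cd52, 1.84 for Fcer1g, 3.20 for Ifi27l2a, 2.29 for Wfdc17 and 0.97 for B2m, and all 5 were called. Sae1, a subunit of the SUMO activating enzyme, stood at 37.9, 36.1 and 36.9 TPM in MPP4 T2 and 475, 466 and 468 TPM in MPP3 T2 and differed the other way, at -2.32. Dntt and Satb1 were further apart in T2 than in T1 cells by 1.61 and 1.05, and Mpo by -0.76 (limma adjusted p = 1.59e-06, 3.77e-04 and 5.57e-04). For Flt3 the difference was -0.36 and was not called (limma adjusted p = 0.134).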

How the data were processed

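RNA sequencing of 6 libraries, 3 of MPP4 and 3 of MPP3 (T2 cells, 3 months), was analysed, with the 3-month T1 and 24-month T2 libraries beside them. The authors deposited TPM values per gene in 5 tables; per the submitters' processing notes HISAT2, StringTie, featureCounts, DESeq2 and build mm10 were used, with roles not given. Per the labels' protocols cells were sorted and cDNA was amplified from low input. Read depth is unknown, since TPM keeps none.

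TPM were rescaled within each comparison by median ratios over genes above 1 TPM in every library, and log2(rescaled TPM + 1) was fitted with limma 3.58.1 in R 4.3.3 (empirical Bayes with trend and robust settings, Benjamini and Hochberg adjustment over all genes tested, threshold 0.05). Fold changes on this scale understate changes of low genes. Genes needed at least 1 TPM in 3 libraries; X and Y genes were left out. Differences between T2 and T1 cells and between ages were interaction terms over 12 libraries. Transcript length and GC came from GENCODE vM21 (values for 96.1% of tested genes), and promoters from RefSeq (GRCm38.p6). The scripts were tested on simulated data.

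Named genes were Bcl11a, up to 15 higher and 15 lower genes by log2 difference (called, groups not overlapping, at least 10 rescaled TPM in the higher group), up to 4 of each of 36 lists by smallest p, up to 6 per difference by adjusted p, and all gate genes; predicted genes and pseudogenes were left out. The members and lists were chosen with earlier results of these data known. No strong effect shared by libraries of the same replicate number was seen, and the main fit left replicate number out. Alternatives covered scaling, pseudocount, filters, GC and length, model and single libraries. Some results are not reported here.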

Additional observations from a re-analysis of the deposited data

Results flagged for a closer look

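The difference of MPP4 minus MPP3 was not the same in T2 and T1 cells for 4340 genes by the interaction test, and not the same at 3 and 24 months for 8515 genes. Between 3 and 24 months, age and table cannot be told apart. Means below are rescaled TPM over the 12 libraries of each test, and each was flagged because the effect differed between these groups.

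Between T2 and T1 cells of 3 months, Cd52 differed by 3.90 on the log2 scale, with means of 2019 in MPP4 T2, 80.5 in MPP3 T2, 420 in MPP4 T1 and 253 in MPP3 T1. Fcer1g differed by 2.75, with 541 in MPP4 T2, 73.1 in MPP3 T2, 129 in MPP4 T1 and 118 in MPP3 T1. Ifi27l2a differed by 4.15, with 515 in MPP4 T2, 7.44 in MPP3 T2, 249 in MPP4 T1 and 71.2 in MPP3 T1. Wfdc17 differed by 3.55, with 9050 in MPP4 T2, 17.8 in MPP3 T2, 926 in MPP4 T1 and 21.4 in MPP3 T1. B2m differed by 2.15, with 54025 in MPP4 T2, 2722 in MPP3 T2, 14303 in MPP4 T1 and 3194 in MPP3 T1. Sae1 differed by -2.32, with 43.0 in MPP4 T2, 533 in MPP3 T2, 214 in MPP4 T1 and 522 in MPP3 T1.

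Between 3 and 24 months in T2 cells, Jchain differed by 15.04, with means of 295 in MPP4 at 3 months, 0.103 in MPP3 at 3 months, 20.1 in MPP4 at 24 months and 2649 in MPP3 at 24 months. Wfdc17 differed by 7.06, with 8400 in MPP4 and 17.1 in MPP3 at 3 months, and 1429 in MPP4 and 405 in MPP3 at 24 months. Dynll1, a dynein light chain, differed by 4.95, with 1252 in MPP4 and 68.7 in MPP3 at 3 months, and 289 in MPP4 and 494 in MPP3 at 24 months. Rpl36al, a ribosomal protein gene, differed by 4.65, with 3025 in MPP4 and 213 in MPP3 at 3 months, and 931 in MPP4 and 1649 in MPP3 at 24 months. Chchd2, a mitochondrial protein, differed by 4.18, with 2880 in MPP4 and 269 in MPP3 at 3 months, and 1150 in MPP4 and 1951 in MPP3 at 24 months. Atp5h differed by 4.87, with 3663 in MPP4 and 220 in MPP3 at 3 months, and 1064 in MPP4 and 1882 in MPP3 at 24 months.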

How the results depend on the processing

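The cause was not tested for any change named here. With TPM as deposited, the difference between T2 and T1 cells was called for 7787 genes, and Bcl11a (-0.26, limma adjusted p = 0.0355) and Flt3 (-0.32, 0.0316) turned direction. With the trend on GC and length removed, Cd4 (0.69, 0.0409), Gzma (-2.16, 0.00692), Retnlg (-0.39, 0.231), Vpreb3 (-0.19, 0.430) and Wfdc21 (-0.69, 0.109) turned direction. Without 1 library at a time, 8094 to 8434 genes were called between MPP4 and MPP3, 3856 to 4430 between T2 and T1 cells and 8161 to 8363 between ages. With the replicate block 8875, 4279 and 8521 genes were called in these 3 comparisons. Deviations of same-numbered libraries correlated at -0.0627, -0.065 and -0.0261, so no strong effect shared by number was seen. These values cannot show whether same-numbered libraries came from the same animals, which the labels do not say. Transcripts of at least 1000 bases only was an alternative chosen after seeing the data. Fcgr2b, S100a8, S100a9, Trp53 and H2-Ob lost their call and Mzb1 and Cd4 gained one under at least 1 alternative. Without any 1 MPP3 library the median of the progenitor gate genes was 0.07 to 0.21, and without any 1 MPP4 library that of mature B and plasma cell genes was -0.48 to -0.36, both turned in direction; fewer genes then pass the filter. Medians of 35 of 36 lists moved beyond the replicate spread with TPM as deposited, and 26 with GC and length removed. Table cannot be told apart from cell type or from age, and with TPM the depth that limits low genes is unknown.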
